A study of Mus musculus with 6 samples.

Results

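The endoplasmic reticulum (ER) folding machinery and the genes of the unfolded protein response were followed in mouse CD4+YFP+ cells that the labels call regulatory T cells (Treg), a CD4 T cell type defined by the transcription factor Foxp3. The members are 32 genes chosen by function: 11 chaperones and their cofactors, 5 genes of disulfide formation, 5 of the translocon and signal peptidase, 8 of ER-associated degradation and 3 stress sensors or their effector. All 32 were measured, among 12393 genes in all. Each gene was read from the probe set (the group of array probes that reports one transcript) with the highest mean over the 6 arrays.

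RNA came from sorted CD4+YFP+ cells of mice on the C57BL/6 background, 1 array per sample. The 3 control samples have B6_WT titles and the genotype Foxp3cre, in which Cre recombinase is made under the control of the Foxp3 gene. The 3 USP7-titled samples carry the same Foxp3cre; the series text describes a floxed Usp7 allele, while their genotype field reads fl-HDAC11/Foxp3cre, and groups follow the titles. Neither the age of the mice nor the number of animals behind a sample is given in the labels, and the series text calls the samples independent without naming animals, so the p-values rest on the spread among these arrays alone, which may be technical. Usp7, a deubiquitinase, read 11.61 to 11.73 in controls, against 10.54 to 10.76 in USP7-titled arrays on the log2 scale, a change of -1.01 (SE 0.07). Hdac11, a histone deacetylase, also fell, by 0.58 (SE 0.16, limma adjusted p = 0.0154), from 6.20 to 6.65 in controls to between 5.65 and 6.04 in USP7-titled arrays. Of 7 Treg and T cell markers 6 fell; Foxp3 itself fell by 5.98, to 6.85, 7.29 and 6.87 in the USP7-titled arrays, so this defining marker goes against the Treg label there. Il2ra fell by 0.17, whereas Cd4 averaged 12.82 in controls and 12.83 in USP7-titled arrays. The others, named after their values were seen, fell far less than Foxp3: Ctla4 by 0.36, Ikzf2 by 0.21, Tnfrsf18 by 0.12 and Cd3e by 0.11. The summed level of all 7 markers on the linear scale, Foxp3 included, was 42077 to 44061 in controls against 31306 to 31861. In bulk samples fewer cells of a type and less RNA per cell cannot be told apart. The female-specific Xist read 12.43 to 12.54 in controls, against 4.63 to 5.65 in USP7-titled arrays, which means that the sex of the mice and the group cannot be told apart; going by RefSeq, 0 of the 32 members lie on X or Y.

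Proteins that enter the secretory pathway pass through the Sec61 channel, lose their signal peptide, fold with the help of lumenal chaperones such as BiP, and gain disulfide bonds through protein disulfide isomerases. Chains that fail to fold are returned to the cytosol and degraded. When unfolded chains build up, the sensors IRE1, ATF6 and PERK start the unfolded protein response, in which spliced XBP1 and cleaved ATF6 switch on chaperone and degradation genes; secretory lymphocytes such as plasma cells are known to use this programme heavily.

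Most of the folding and translocation members were higher in USP7-titled arrays and most of the degradation members did not pass the test. Of 32 members 20 rose, 1 fell and 11 did not pass (limma, Benjamini-Hochberg adjusted p under 0.05 over all genes). Among all genes tested 17.0% were higher and 15.9% lower. The members are bright genes, and with the dimmest 40% of genes left out 26.8% of genes were higher, with the same 20 members counted higher and 1 lower. The median log2 change of the members was 0.27, against -0.05 for all genes. Sizes were small: 4 of the 20 rises reached 1.5-fold (Sdf2l1, Manf, Creld2 and Pdia6). That is 4 of 32 members, at a cut where 7.33% of all genes were higher. Scaling to the hybridization spikes adds the same amount to every change, and the smaller ones then read 0.301 (Hspa5), 0.324 (Pdia3), 0.31 (Sec61a1), 0.458 (Calr), 0.452 (Derl2) and 0.306 (Vcp). In 20 members every USP7-titled array lay above every control, as in 20.9% of all genes, and in 2 every USP7-titled array lay below, as in 24.7% of all genes.

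**Figure D1:**
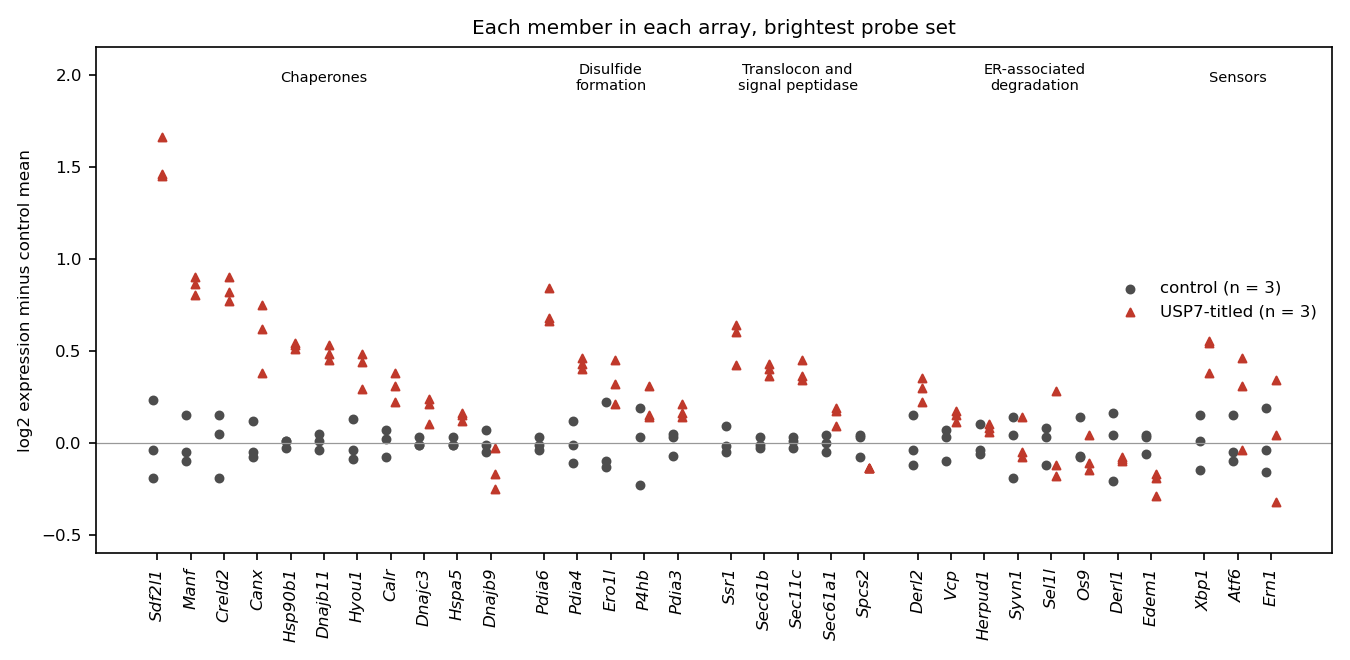
Log2 expression of each member in each array, minus the gene's control mean (y axis), by role (x axis); circles are the 3 control arrays and triangles the 3 USP7-titled arrays. Triangles stand clear of the circles for most chaperone and translocon genes, with Sdf2l1 the farthest at a change of 1.52, and mix with them for most degradation genes.

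Because spliced XBP1 and cleaved ATF6 act through short DNA elements, the promoters of the members were read from RefSeq windows (GRCm38.p6) that run from 250 bases before to 50 bases after each annotated start. Windows were found for 26 of the 32 members; Hyou1, Manf, Sec61a1, Sec11c, Derl1 and Atf6 had none. Both strands were searched for the ER stress element ERSE (CCAAT, then 9 bases of any kind, then CCACG), for ERSE-II (ATTGG, 1 base of any kind, CCACG) and for the core of the unfolded protein response element, UPRE (TGACGTGG). An ERSE was found in 8 of 26 members (30.77%), against 18 of 9887 measured genes with a window (0.18%) and 39 of all 32851 windows (0.12%). ERSE-II was found in Dnajb11 and Herpud1 (7.69% of members, 0.08% of measured genes, 0.04% of all windows), and the UPRE core in Vcp alone (3.85% of members, 1.04% of measured genes, 0.68% of all windows). The 12 matches in members had 0 overlaps with one another. The members were chosen as genes of ER folding and of the response that acts through these elements. Their larger share of matches is therefore not an independent result. A match is a description of letters and was not tested for binding.

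The stretches that hold the ERSE are shown for all 8 members. Each is 5′ to 3′ on the gene's own strand and lies wholly upstream of the start; capitals mark the ERSE, which reads CGTGG to ATTGG where it lies on the opposite strand. They are ordered by the size of the change in expression; Hspa5 and Syvn1 were added to the 6 with the largest changes after the values were seen. In GRCm38.p6 they lie at chr15:88819505-88819553 (+ strand) for Creld2, chr12:17266476-17266524 (+) for Pdia6, chr11:50325785-50325833 (- strand) for Canx, chr10:86705518-86705671 (-) for Hsp90b1, chr8:84847060-84847108 (-) for Calr, chr14:118937812-118937860 (+) for Dnajc3, chr2:34772010-34772058 (+) for Hspa5 and chr19:6046517-6046565 (+) for Syvn1.
Creld2: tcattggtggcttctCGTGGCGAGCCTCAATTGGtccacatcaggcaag
Pdia6: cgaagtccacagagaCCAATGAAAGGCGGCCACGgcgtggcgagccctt
Canx: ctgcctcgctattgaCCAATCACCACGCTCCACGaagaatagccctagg
Hsp90b1: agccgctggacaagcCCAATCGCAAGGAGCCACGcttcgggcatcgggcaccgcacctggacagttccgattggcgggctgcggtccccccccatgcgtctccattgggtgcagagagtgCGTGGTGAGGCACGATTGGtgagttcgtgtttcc
Calr: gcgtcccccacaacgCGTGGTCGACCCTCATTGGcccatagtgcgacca
Dnajc3: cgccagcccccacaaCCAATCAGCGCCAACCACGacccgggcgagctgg
Hspa5: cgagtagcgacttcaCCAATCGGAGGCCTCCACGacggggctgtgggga
Syvn1: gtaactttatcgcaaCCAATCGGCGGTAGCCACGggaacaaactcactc

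Hsp90b1 holds 2 such elements on opposite strands and the other 7 hold 1 each. Of the 8 members with an ERSE 6 rose (Creld2, Pdia6, Canx, Hsp90b1, Calr and Hspa5), with a median change of 0.42 over all 8. Dnajc3 and Syvn1 did not pass. Among all 32 members, with or without an ERSE, 20 rose (62.5%), with a median of 0.27. The other 10 measured genes with an ERSE window included 0 that rose (limma, with 1 higher at an unadjusted p under 0.05), 1 that fell (Pan2, a subunit of a poly(A) nuclease, -0.90) and 9 that did not pass, with a median of -0.09. Among those 9 are Derl3 (-0.04), Ero1b (0.28) and the glycosylation enzyme Alg12 (-0.28), which also act in the ER. These 10 were looked at after the members' values were known. Their control means ran from 3.79 (Acnat2) to 9.09 (Pan2), against 8.24 (Syvn1) to 12.11 (Hspa5) in the 8 members. The sets were thus not matched in level, and a dim gene may be one that these cells do not express. Sdf2l1, the member that rose the furthest, had a window with no match to any of the 3 elements. Only exact matches within the window were searched, so variant elements or elements elsewhere would be missed.

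**Figure D2:**
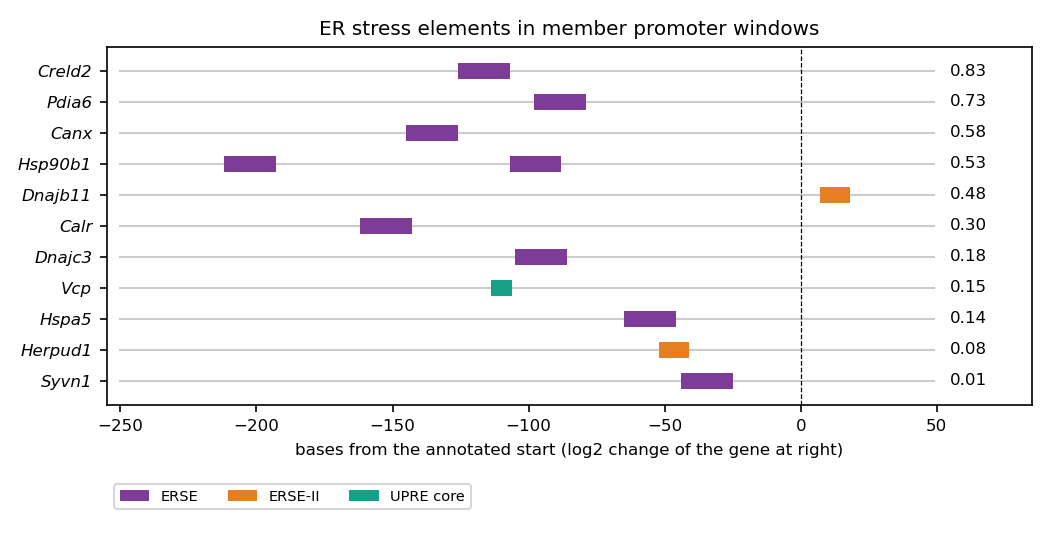
Position of each match to ERSE, ERSE-II and the UPRE core in the members' promoter windows, in bases from the annotated start (x axis; the dashed line is the start), with the log2 change of each gene at the right. The ERSE matches lie between positions -212 and -26 from the start, in genes whose changes run from 0.83 (Creld2) to 0.01 (Syvn1).

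Among the chaperones and their cofactors 9 of 11 rose, 0 fell, and the median change was 0.48. Sdf2l1, a cofactor of BiP in the ER lumen, read 8.88, 8.61 and 8.46 in controls, against 10.11, 10.31 and 10.10 in USP7-titled arrays. Its lowest USP7-titled array stood 1.22 above its highest control. Group means were 8.65 ± 0.21 and 10.17 ± 0.12 (SD, n = 3 each), which is a rise of 1.52 (SE 0.12, 95% interval 1.25 to 1.79) or 2.87-fold (limma adjusted p = 3.75e-06).

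Manf and Creld2, small ER proteins that are also secreted under stress, followed in size. Manf read 10.39, 10.59 and 10.34 in controls, against 11.34, 11.30 and 11.24 in USP7-titled arrays, a rise of 0.85 (SE 0.08) or 1.80-fold (limma adjusted p = 1.01e-05). Creld2 read 9.91, 9.57 and 9.81 in controls, against 10.58, 10.66 and 10.53 in USP7-titled arrays, a rise of 0.83 (SE 0.10) or 1.77-fold (limma adjusted p = 7e-05). The groups of both genes were well apart, by 0.65 and 0.62 between the nearest arrays.

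The abundant chaperones rose less. Hsp90b1, the ER form of Hsp90 known as GRP94, read 11.34, 11.38 and 11.38 in controls, against 11.91, 11.88 and 11.90 in USP7-titled arrays, a rise of 0.53 (SE 0.05, limma adjusted p = 8.83e-06). The nearest arrays of the groups were 0.50 apart, and its other probe set gave 0.48. Hspa5, which encodes BiP, the central Hsp70 of the ER and the sensors' partner, read 12.14, 12.10 and 12.10 in controls, against 12.26, 12.27 and 12.23 in USP7-titled arrays. Its rise was only 0.14 (SE 0.04, 1.10-fold, limma adjusted p = 0.0167), and 0.23 by its other probe set. The Hspa5 call was lost with quantile normalization (0.087, limma adjusted p = 0.122), without the variance trend (limma adjusted p = 0.193), without control replicate 2 (0.134, limma adjusted p = 0.0563) or without the same-numbered USP7-titled array (0.136, limma adjusted p = 0.0641).

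The lectin chaperones that hold glycoproteins in the ER rose as a pair. Canx (calnexin) read 10.03, 10.00 and 10.20 in controls, against 10.46, 10.70 and 10.83 in USP7-titled arrays, a rise of 0.58 (SE 0.10, limma adjusted p = 0.00116). Its other probe sets were at 0.52, past the threshold, and 0.04, not past it, and the mean of the probe sets gave 0.381. Calr (calreticulin) rose by 0.30 (SE 0.06, limma adjusted p = 0.00164), and by 0.31 and 0.38 with its other probe sets. Of the BiP cofactors, Hyou1, an Hsp70-like exchange factor, rose by 0.40 (SE 0.08, limma adjusted p = 0.00276). The J-domain protein Dnajb11 read 11.17 to 11.26 in controls, against 11.66 to 11.74 in USP7-titled arrays, a rise of 0.48 (SE 0.05, limma adjusted p = 4.65e-05).

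The remaining J-domain genes did not pass. Dnajb9 (ERdj4), a textbook target of spliced XBP1, read 8.84, 8.76 and 8.72 in controls, against 8.60, 8.74 and 8.52 in USP7-titled arrays, with a difference of -0.16 (95% interval -0.39 to 0.08, limma adjusted p = 0.306); its groups overlapped, and scaled to the hybridization spikes the difference was 0.004. Dnajc3 (p58IPK), an inhibitor of PERK, had all 3 USP7-titled arrays above the controls by a margin of 0.07, with a difference of 0.18 (limma adjusted p = 0.0772) and of 0.341 under spike scaling (limma adjusted p = 0.0125).

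In the disulfide group 4 of 5 members rose, 0 fell, and the median change was 0.33. Pdia6, an isomerase that binds BiP, read 9.37, 9.30 and 9.33 in controls, against 10.02, 10.00 and 10.18 in USP7-titled arrays. All USP7-titled arrays stood at least 0.63 above the controls, and the rise was 0.73 (SE 0.09) or 1.66-fold (limma adjusted p = 9.53e-05). A dimmer Pdia6 probe set was at -0.17 and did not pass, and the mean of both gave a smaller rise of 0.283 (limma adjusted p = 0.0438). Pdia4 (ERp72) rose by 0.43 (SE 0.09, limma adjusted p = 0.00393).

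Pdia3 (ERp57), the isomerase that works with calnexin and calreticulin, read 11.96, 11.98 and 11.86 in controls, against 12.14, 12.07 and 12.09 in USP7-titled arrays. Its rise of 0.16 (SE 0.05, limma adjusted p = 0.0205) lost its call with quantile normalization (0.098, limma adjusted p = 0.167) and without the variance trend (limma adjusted p = 0.16). It was also lost without control replicate 3 (0.129, limma adjusted p = 0.051), USP7-titled replicate 1 (0.144, limma adjusted p = 0.0664) or USP7-titled replicate 3 (0.168, limma adjusted p = 0.0521). P4hb, the founding protein disulfide isomerase, read 10.43 to 10.85 in controls, against 10.80 to 10.97 in USP7-titled arrays; the groups overlapped and the difference was 0.20 (95% interval -0.02 to 0.43, limma adjusted p = 0.159), but 0.364 under spike scaling (limma adjusted p = 0.0189).

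Ero1l (Ero1a in the array annotation), the oxidase that recharges these isomerases, read 9.49, 9.17 and 9.14 in controls, against 9.48, 9.72 and 9.59 in USP7-titled arrays. Control replicate 1 lay level with the lowest USP7-titled array. The rise of 0.33 (SE 0.12) sat at the threshold (limma adjusted p = 0.0499), and its other probe sets rose by 0.55 and 0.51. The call was lost with quantile normalization (limma adjusted p = 0.0641), without the variance trend (limma adjusted p = 0.0725) and with a block for replicate number (limma adjusted p = 0.0714). It was also lost without control replicate 2 (0.284, limma adjusted p = 0.158), control replicate 3 (0.268, limma adjusted p = 0.152), USP7-titled replicate 2 (0.273, limma adjusted p = 0.155) or USP7-titled replicate 3 (0.335, limma adjusted p = 0.0959).

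**Figure D3:**
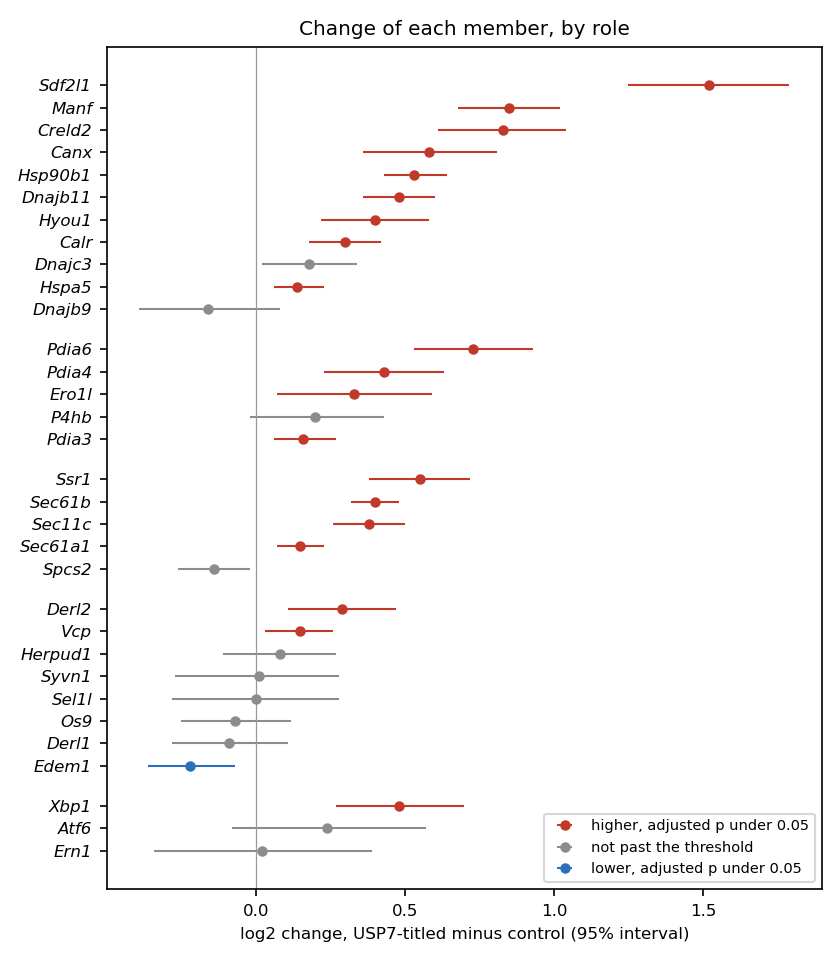
Log2 change of each member, USP7-titled minus control (x axis), with its 95% interval from the limma fit (bars), by role from chaperones at the top to sensors at the bottom. Red marks the 20 members that rose, blue Edem1, the 1 that fell, and grey the 11 that did not pass.

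At the translocon 4 of 5 members rose, 0 fell, and the median change was 0.38. Sec61b, the beta subunit of the channel, read 12.35, 12.29 and 12.31 in controls, against 12.68, 12.72 and 12.75 in USP7-titled arrays, a rise of 0.40 (SE 0.04, 1.32-fold, limma adjusted p = 1.27e-05). Both groups were tight, with the nearest arrays 0.33 apart. Ssr1, a subunit of the TRAP complex beside the channel, read 10.63, 10.77 and 10.66 in controls, against 11.10, 11.28 and 11.32 in USP7-titled arrays, a rise of 0.55 (SE 0.08, limma adjusted p = 0.00022). Its other probe sets were at 0.37, past the threshold, and 0.11, not past it, and their mean with the brightest gave 0.343. Sec11c, a catalytic subunit of signal peptidase, rose by 0.38 (SE 0.06, limma adjusted p = 0.000339).

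Sec61a1, the pore subunit, gave different sizes by probe set. The mean of them gave 0.389. The brightest read 12.99, 12.94 and 13.03 in controls, against 13.08, 13.16 and 13.18 in USP7-titled arrays, a rise of 0.15 (SE 0.04, limma adjusted p = 0.00691, and 0.188 without the variance trend). Of the other 5 probe sets 4 rose, by 0.33, 0.57, 0.62 and 0.92, and 1 stood at -0.27 without passing (limma adjusted p = 0.107). Spcs2, a noncatalytic subunit of signal peptidase, read 11.47, 11.46 and 11.35 in controls, against 11.29 in each USP7-titled array, a difference of -0.14 that did not pass (limma adjusted p = 0.0809) although the groups did not overlap. It passed as lower without control replicate 3 (-0.176, limma adjusted p = 0.0339) and with quantile normalization (-0.194, limma adjusted p = 0.0225), and was at 0.02 under spike scaling.

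Of the degradation members, 2 of 8 rose, 1 fell, 5 did not pass, and the median change was 0.00. Edem1, a lectin that hands misfolded glycoproteins to degradation, read 11.03, 11.04 and 10.94 in controls, against 10.71, 10.81 and 10.83 in USP7-titled arrays. Every USP7-titled array lay below every control, and Edem1 fell by 0.22 (SE 0.07, limma adjusted p = 0.0262), with its other probe set at -0.20. Under spike scaling the difference was -0.058 (limma adjusted p = 0.68). The call was also lost without control replicate 1 (-0.205, limma adjusted p = 0.0886), control replicate 2 (-0.2, limma adjusted p = 0.0884) or USP7-titled replicate 1 (-0.179, limma adjusted p = 0.0771).

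Both degradation genes that rose have a dimmer probe set that fell. Derl2, a channel protein of the retrotranslocation complex, read 10.53, 10.61 and 10.80 in controls, against 10.95, 10.87 and 11.00 in USP7-titled arrays, a rise of 0.29 (SE 0.08, limma adjusted p = 0.0168), while its other probe set fell by 0.48. The call was lost without the variance trend (limma adjusted p = 0.0557), without control replicate 1 (0.236, limma adjusted p = 0.0759), control replicate 2 (0.273, limma adjusted p = 0.0596) or USP7-titled replicate 3 (0.26, limma adjusted p = 0.0629). Vcp, the ATPase that pulls substrates from the membrane, read 12.04, 12.00 and 11.87 in controls, against 12.08, 12.12 and 12.14 in USP7-titled arrays, a rise of 0.15 (SE 0.05, limma adjusted p = 0.0486), while its other probe set fell by 0.67. With quantile normalization Vcp was at 0.085 (limma adjusted p = 0.251), and without the variance trend its limma adjusted p was 0.224. The Vcp call was also lost with array weights (limma adjusted p = 0.0579) and with a block for replicate number (limma adjusted p = 0.0599). The nearest arrays of the groups were 0.05 apart, and only leaving out control replicate 1 kept the Vcp call; without the other arrays in turn its limma adjusted p was 0.073 (control replicate 2), 0.124 (control replicate 3), 0.0603, 0.119 and 0.135 (USP7-titled replicates 1, 2 and 3), with changes of 0.162, 0.097, 0.163, 0.143 and 0.133.

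The core of the HRD1 ligase complex did not pass. Syvn1, the ligase itself, read 8.38, 8.05 and 8.28 in controls, against 8.16, 8.38 and 8.19 in USP7-titled arrays, with a difference of 0.01 (95% interval -0.27 to 0.28). Sel1l, its partner, had a difference of -0.004 (95% interval -0.28 to 0.28), with USP7-titled replicate 1 at 9.82 above the other arrays. Herpud1, which binds the complex, was at 0.08 (95% interval -0.11 to 0.27, limma adjusted p = 0.53), with its other probe set higher by 0.32. The channel protein Derl1 was at -0.09 (95% interval -0.28 to 0.11) and the lectin Os9 at -0.07 (95% interval -0.25 to 0.12). A rise of the size seen in Sdf2l1 or Manf, the largest among the members, lies outside all 5 intervals. The members' median change of 0.27 lies inside those of Syvn1 and Sel1l. A rise of 0.14, as in Hspa5, also lies inside that of Herpud1 but above those of Derl1 and Os9. These intervals hold for the brightest probe set of each gene only. The other Derl1 probe sets were at 0.12, 0.15 and 0.27, the last of them past the threshold, and the other Os9 probe set was at 0.12, not past it. Sel1l, Derl1 and Os9 were above 0 under spike scaling, at 0.155, 0.072 and 0.091, none of them past the threshold.

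Of the sensors and effectors 1 of 3 rose. Xbp1, the transcription factor made active by IRE1 splicing, read 9.79, 9.63 and 9.93 in controls, against 10.16, 10.33 and 10.32 in USP7-titled arrays. The groups did not overlap, and Xbp1 rose by 0.48 (SE 0.10, 1.40-fold, limma adjusted p = 0.003), with its other 3 probe sets higher by 0.54, 0.58 and 0.40. Splicing of Xbp1 was not analysed here. Ern1, which encodes IRE1, read 8.32, 8.55 and 8.20 in controls, against 8.40, 8.04 and 8.70 in USP7-titled arrays, a difference of 0.02 (95% interval -0.34 to 0.39), and 1 of its 2 dim probe sets fell by 0.39. Atf6 was at 0.24 (95% interval -0.08 to 0.57, limma adjusted p = 0.24), with overlapping groups.

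Probe sets of one gene were a further view of each change. The 32 members have 72 probe sets, and 21 members have more than 1. In the fit over all probe sets, 22 dimmer probe sets belong to members whose brightest rose, and 14 of them rose too. Of all 40 dimmer probe sets 14 differed in sign from the brightest, in 9 genes, and 4 of those passed the threshold (Derl1, Derl2, Vcp and Ern1). A dimmer probe set passed in 5 members whose brightest did not in that fit: Dnajc3, Ero1l, Herpud1 and Derl1 with a rise, and Ern1 with a fall. Where these probes lie in their transcripts was not analysed here.

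**Figure D4:**
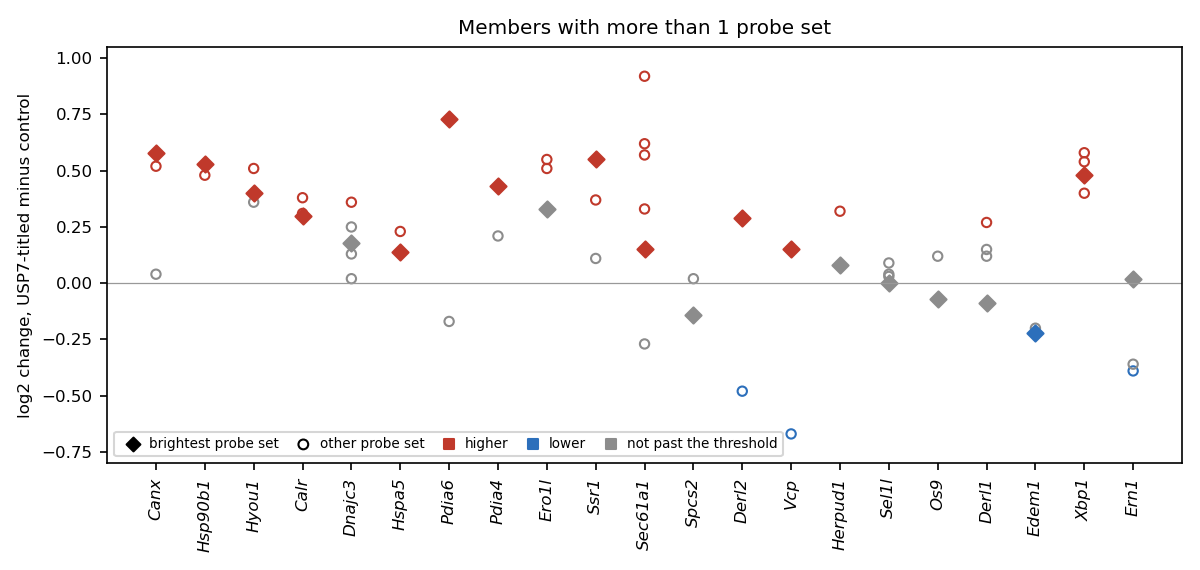
Log2 change (y axis) of every probe set of the 21 members with more than 1 (x axis); diamonds are the brightest probe set and circles the others, in red where higher, blue where lower and grey where not past the threshold in the fit over all probe sets. The 4 Xbp1 probe sets lie together, whereas those of Sec61a1 run from -0.27 to 0.92 and those of Vcp and Derl2 lie on both sides of 0.

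Other genes of the pathway, 126 measured of 139 listed, were higher in 47 cases (37.3%) and lower in 11, with a median of 0.16. Among all genes 17.0% were higher and 15.9% lower, and 26.8% were higher with the dimmest 40% of genes left out. N-glycosylation genes had 10 of 17 higher and 1 lower (median 0.29): Dpagt1, which starts the glycan precursor, rose by 0.90 (SE 0.16) and Magt1, linked to the oligosaccharyltransferase, by 0.70 (SE 0.13). ER-to-Golgi traffic genes had 12 of 22 higher and 2 lower (median 0.24). There the cargo receptor Lman1 rose by 0.73 and Golt1b by 0.70. Of the retrieval receptors for KDEL-tailed ER proteins, chosen after their values were seen, Kdelr2 and Kdelr1 rose by 0.37 and 0.29 and Kdelr3 fell by 0.65.

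Translocation and signal peptidase genes outside the members had 7 of 19 higher and 1 lower (median 0.15). The TRAP subunit Ssr2 rose by 0.76 (SE 0.09), and Sec61a2, a second form of the pore, fell by 0.93 (SE 0.19). The wider folding and disulfide list had 5 of 20 higher and 1 lower (median 0.12). The peroxiredoxin Prdx4 read 9.07, 8.84 and 9.29 in controls, against 10.42, 10.76 and 10.69 in USP7-titled arrays (1.56, SE 0.13), and the isomerase family member Txndc5 rose by 1.36 (SE 0.14). Prdx4, Magt1 and Ssr4 lie on X; without them the folding list had 4 of 19 higher, the glycosylation list 9 of 16 and the translocation list 6 of 18. Wider degradation genes were higher in 5 of 20 and lower in 2, with a median of 0.09. The selenoprotein Selk rose by 0.48 and the ligase Rnf185 fell by 0.43. In the full folding list and in the degradation list 25.0% were higher, near the 26.8% of genes with the dimmest 40% left out.

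Genes of the PERK arm and of the integrated stress response, which other kinases can also start, went both ways: 6 of 15 genes rose, 1 fell, and the median was 0.10. Asns, which makes asparagine, rose by 1.94 (SE 0.21) and the transcription factor Cebpb by 0.76. Of members picked after their values were seen, Eif2ak3, which encodes PERK, rose by 0.60, Atf4 was at 0.10 and Ddit3 (CHOP) at -0.24 without passing, and Ppp1r15a (GADD34), which restores translation, fell by 0.71. Among transcription factors and regulators of the response 2 of 13 rose (15.4%, against 17.0% of all genes), 3 fell, and the median was 0.05. Creb3l1 rose by 0.70 and Crebzf fell by 0.76.

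**Figure D5:**
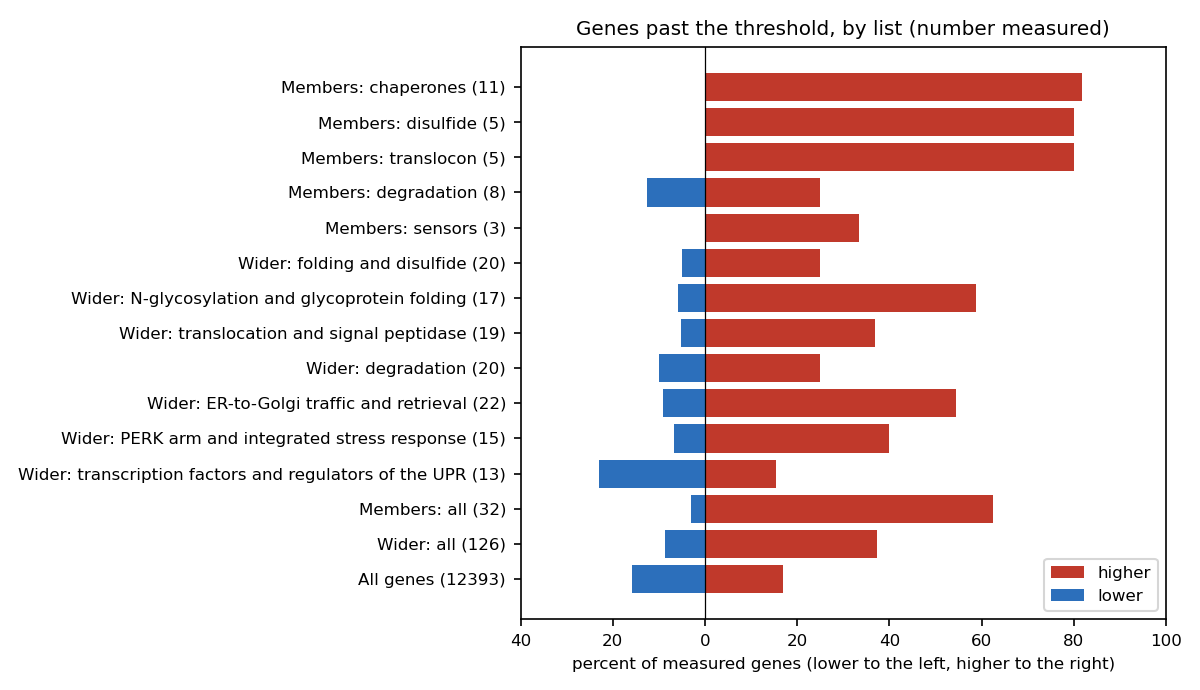
Percent of measured genes past the threshold as higher (red, to the right) and lower (blue, to the left) in each role of the members, in each wider list and among all genes, with the number measured in brackets. The chaperone, disulfide and translocon members stand at 81.8%, 80% and 80% higher, the degradation members at 25%, and all genes at 17%. With the dimmest 40% of genes left out, 26.8% of genes were higher (not drawn).

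Markers of other cells and of division differed between the same groups of arrays. All 11 measured mitosis genes rose, with a median of 3.08; their summed level on the linear scale was 2989 to 3502 in controls, against 23858 to 24072 in USP7-titled arrays. Of the brightest of them Ube2c rose by 3.46 and Mki67 by 2.16. Of 16 myeloid markers 12 were higher and 1 lower, and their sum was 7179 to 7983 in controls, against 8841 to 10385 in USP7-titled arrays; their median change was 1.56. Ctss, which makes up much of that sum, fell by 0.48, and Lyz2 rose by 1.65. B and plasma cell markers, of interest since plasma cells are rich in ER, had 3 of 12 higher and 0 lower. Their summed level was 6252 to 6556 in controls, against 6410 to 7159 in USP7-titled arrays. Ighm, which makes up most of that sum, was at -0.04. The 3 that rose were Ms4a1, from a mean of 6.06 to 7.06, Pou2af1 by 0.91 and Prdm1 by 0.45, while the plasma cell gene Sdc1 was at 0.00 and the antibody joining chain (Igj) at 0.25, neither past the threshold. All of these except Ighm and Prdm1 were picked after their values were seen, and 1 of the 12, Derl3, is also in the wider degradation list. Of 11 markers of CD8 T or NK cells 5 were higher, among them the granule genes Gzmb by 3.29 and Nkg7 by 2.76, and 1 was lower (median 0.19). The lineage markers Cd8a (0.02), Cd8b1 (-0.23), Klrd1 (0.19) and Ncr1 (-0.15), named after their values were seen, did not pass. The summed level was 4028 to 4142 in controls, against 14132 to 14918 in USP7-titled arrays, where Gzmb and Nkg7 make up most of it. In these 4 lists 0 markers were at 0 on the log2 scale in any array. The lowest value of any probe set was 2.21, so this does not show that the markers were expressed. Ncr1, for one, averaged 3.99 in controls and 3.84 in USP7-titled arrays. The part of these cells, of division and of sex in the ER changes was not tested.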

How the data were processed

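RNA of 6 samples of sorted CD4+YFP+ cells that the labels call Treg (3 control, 3 USP7-titled) was measured on 1 array each. Amplification and biotin labelling started from 100 ng, per the labels. The authors deposited log2 values for each probe set (2.21 to 15.03, array medians 7.91 to 7.96); how they were summarised and normalized is not given in the sources used here; they were used unchanged, and any shift common to most genes would not show. Of 22690 probe sets, 20380 with a single annotated symbol gave 12393 genes, each by its brightest probe set. The test was limma 3.58.1 under R 4.3.3 (lmFit, eBayes with a trend, two-sided, Benjamini-Hochberg over all genes, threshold 0.05), tested on simulated data. The number of arrays limits the precision; the median residual SD was 0.0943 over members and 0.136 over all genes. Spike scaling means each array was set to the mean of its 18 hybridization spike probe sets.

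Every member is described. From each wider list the 2 genes with the largest change past the threshold are named, and from each marker list the 2 brightest, beside Usp7, Foxp3 and Xist; other names are marked where they stand. Members and lists were chosen with earlier results of these data known, so no p is adjusted over a list and no test is made over one. The planned reading of protein tails was not made, as no protein sequences were used here. Alternatives were scaling, filter, probe set choice, test settings, replicate block, thresholds and leaving out each array.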

Additional observations from a re-analysis of the deposited data

How the results depend on the processing

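Of the 20 members that rose, 14 kept their call in each of 15 refits; the others were Hspa5, Pdia3, Ero1l, Sec61a1, Derl2 and Vcp. The count of members higher was 16 with quantile normalization, 22 with spike scaling and 14 without the variance trend, where Edem1 also lost its call (limma adjusted p = 0.0814). It was 16 to 19 without 1 array, and 4 where at least 1.5-fold was also asked. In the same order, the share of all genes higher was 16.1%, 23.9%, 14.8%, 13.7% to 16.9% and 7.33%, against 17.0% as deposited. The count lower was 2 with quantile normalization, 0 with spike scaling, without the trend, at a threshold of 0.01 or at 1.5-fold, and 0 to 2 without 1 array. The members' median was 0.428 with spike scaling, where that of all genes moved from -0.051 to 0.108 and 75.9% of called genes were higher, against 51.5% as deposited; this scaling moves every change by the same amount. With the replicate block, 18 members were higher and 1 lower; same-numbered arrays deviated together with r of 0.0785, -0.0599 and 0.094, so the numbers were not taken as pairs.

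Signs turned as follows. With spike scaling Dnajb9 was at 0.004, Spcs2 at 0.02, Sel1l at 0.155, Derl1 at 0.072 and Os9 at 0.091. With the mean of a gene's probe sets Sel1l was at 0.04, Derl1 at 0.113, Derl2 at -0.093, Os9 at 0.028, Vcp at -0.262 and Ern1 at -0.241. Sel1l was at 0.005 with median centring and Ern1 at -0.046 with array weights. Without 1 array Syvn1 ran from -0.087 to 0.08, Sel1l from -0.149 to 0.083, Os9 from -0.124 to 0.003 and Ern1 from -0.138 to 0.193. Of these only Derl2 and Vcp had passed; the cause was not tested.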
